A study of Mus musculus with 90 samples.

Results

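Of the 18336 autosomal regions of mouse embryonic stem cells that held a peak of trimethylated lysine 4 of histone H3 (H3K4me3) in both deposited libraries, 17999 were at most 5000 bp wide, and 1145 of these overlapped no peak of the methyltransferase Mll2 and no peak of its partner Menin. They made up 6.36% of the 17999 (exact Clopper-Pearson 95% interval 6.01 to 6.73%, which covers counting error only). The number depends on the lists more than that interval shows: it was 1856 with the Menin list not used, 2349 when Mll2 and Menin peaks needed a score of at least 100, 579 when H3K4me3 peaks needed a fold of at least 10, and 3940 without H3K4me3 replicate 3. The members were selected on called peaks, by merging overlapping peaks of H3K4me3 replicates 1 and 3 on chromosomes 1 to 19, keeping merged regions with a peak of each library, and removing every region that shared at least 1 bp with a listed peak of Menin or of either of the 2 Mll2 antisera. These regions are narrow and weak in H3K4me3. With all lists used in full, they lie farther at the median from other H3K4me3 regions of both libraries than regions with Mll2, Menin or both do. They include a small number of stronger sites, several of them in stretches of chromosomes 2, 4 and 13 that hold several members.

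H3K4me3 marks the promoters of active genes and, together with repressive marks, of genes held ready in pluripotent cells. It is written by the COMPASS family of complexes: those built on Set1a or Set1b act at many active promoters, and those built on Mll1 or Mll2 contain Menin and act at a subset that includes developmental genes. Mll2 recognises unmethylated CpG-rich DNA through its CXXC domain. A region with the mark and with no called peak of Mll2 or Menin is thus a place where the mark was detected and these 2 proteins were not called. It says nothing of the enzyme that wrote the mark there, and other COMPASS subunits were not analysed here.

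The series mapped H3K4me3 and Mll2 in mouse embryonic stem cells and asked what they do for gene expression and differentiation; 5 of its 90 samples were used. All 5 were made from wild-type V6.5 cells, an embryonic stem cell line, grown with serum and leukaemia inhibitory factor. The H3K4me3 libraries (antibody 28, replicates 1 and 3) were of cells infected with a lentiviral control hairpin against GFP and selected with puromycin, while the labels of the Mll2 libraries (sera 9172 and 9175) and of the Menin library name no hairpin. By these labels the cells differed in hairpin treatment between the mark and the proteins, and this difference cannot be told apart from the antibody. Nothing says that the H3K4me3 libraries came from separate cultures, and the proteins had 1 library per antibody.

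The libraries kept between 11550409 (Menin) and 21936546 (H3K4me3 replicate 1) tags after removal of duplicate positions, and replicate 3 kept 12277583. The lists held from 19912 to 43544 peaks each. A missing peak is a site not called at these depths by the authors' peak caller at a p cutoff of 1e-05. No signal track was used, so occupancy below the calling threshold could not be read. Because the peak calls chose the regions, the classes of regions are set side by side below as descriptions without tests, and regions of 1 library are not replicates.

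Each protein list removed regions that no other list removed. The Menin list alone removed 711 regions, serum 9172 alone 224, serum 9175 alone 222, and the 2 sera without Menin 351, whereas 14286 of the 17999 regions (79.4%) had peaks of all 3 lists. The peaks that removed a region by themselves were weak. Serum 9172 peaks of this kind had a median fold enrichment (the authors' ratio of ChIP tags to estimated background) of 7.73, against 15.3 for serum 9172 peaks at regions with both proteins. The same medians were 8.15 against 17.9 for serum 9175 and 8.94 against 11.3 for Menin.

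The limit on width removed no candidate: 0 of the 337 regions wider than 5000 bp lacked both proteins, and the widest member measured 2984 bp. At the limit of overlap, the member with the smallest gap lay on chromosome 15 from 25697889 to 25699198, 21 bp from an Mll2 peak and 66 bp from a Menin peak. The next lay on chromosome 12 from 111184760 to 111186005, 25 bp from a Menin peak, and on chromosome 11 from 52171560 to 52172463, 27 bp from one. On the other side, a region on chromosome 16 from 50525435 to 50526949 was removed by 5 bp of overlap with a Menin peak, 1 on chromosome 13 from 51217806 to 51219444 by 9 bp, and 1 on chromosome 3 from 94283534 to 94284333 by 32 bp. The 3 members just inside had 2.61, 4.23 and 4.74 H3K4me3 tags per kb of peak per 1000000 kept tags in replicate 1, and the 3 regions just outside had 4.81, 2.11 and 4.10, so the values of the 2 sides overlapped.

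H3K4me3 strength was taken as the ChIP tags in a library's peaks per kb of those peaks and per 1000000 kept tags. Members had a median strength of 3.18 in replicate 1 (quartiles 2.50 and 4.34, range 1.65 to 12.1) and of 2.98 in replicate 3 (quartiles 2.55 and 3.70, range 1.99 to 13.2). Regions with both Mll2 and Menin had medians of 11.2 and 12.1, which is 3.50 times and 4.08 times the medians of the members. Regions with Menin only were close to the members, at 3.29 and 3.06, and regions with Mll2 only stood at 4.24 and 3.54. In raw terms a member held a median of 58 tags in replicate 1 and 22 in replicate 3, against 519 and 259 at regions with both proteins. Few members exceeded the median of regions with both proteins, 3 in replicate 1 and 2 in replicate 3. That class also held weak regions, with 10th percentiles of 3.53 and 3.32 and lower quartiles of 5.66 and 5.38.

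**Figure D1:**
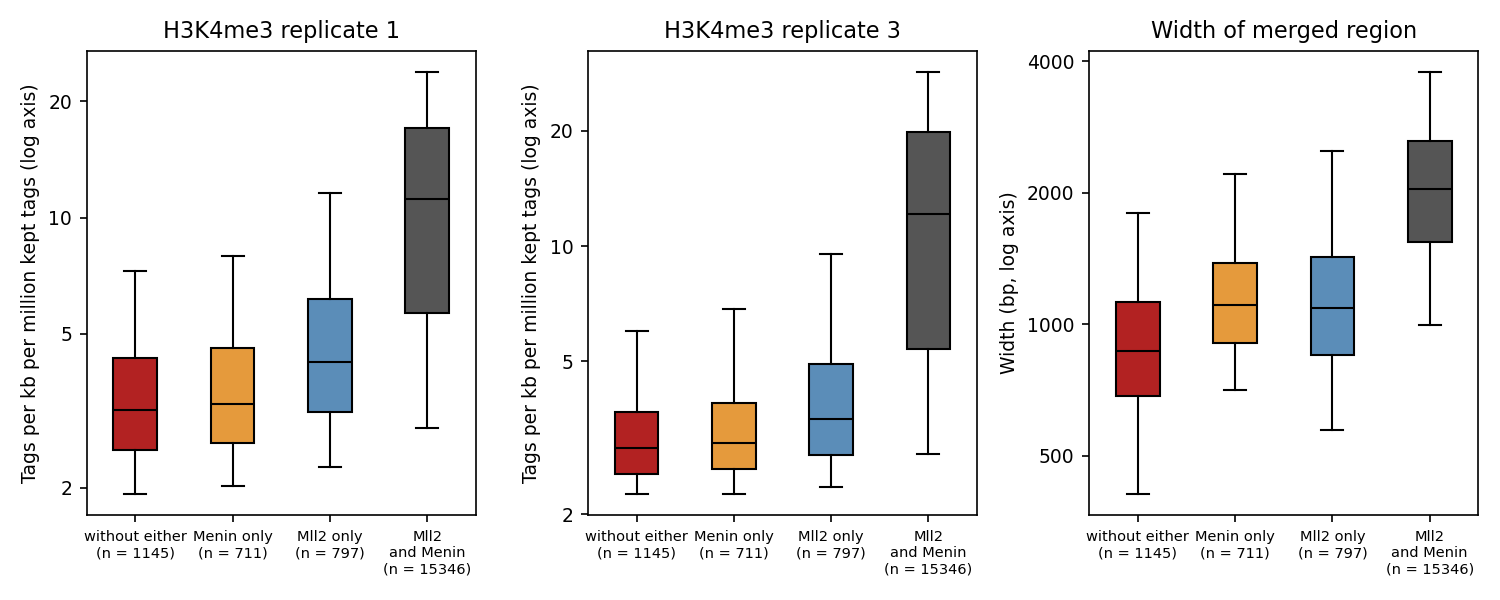
H3K4me3 strength in each library (tags per kb per 1000000 kept tags, log axis) and width of the merged region (bp, log axis) for the 4 classes of H3K4me3 regions; boxes span the quartiles with the median as a line, and whiskers reach the 5th and 95th percentiles. The regions without Mll2 or Menin have the lowest medians in each panel, 3.18 and 2.98 in strength and 870 bp in width, and their boxes overlap those of regions with Menin only.

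The authors' fold enrichment gave much the same distance from the regions with both proteins but another order among the weak classes. Its median at members was 13.2 in replicate 1 and 10.7 in replicate 3, against 45.0 and 41.4 at regions with both proteins. Regions with Menin only had lower folds than the members, 11.4 and 9.44, although their tags per kb were slightly higher. Tags per kb divided by fold had a median of 5.42 at members and 6.40 at regions with Menin only in replicate 1. In replicate 3 it was 3.40 and 3.93. This quotient is not a measure of the background that the peak caller assumed. Tags per kb are a mean over the peak, and the fold need not be. The part of this quotient in the order of the classes was not tested.

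High values were rare. A fold of at least 40 in replicate 1 was reached by 26 members (2.27%), where 48.8% of all 17999 regions reached it, and by 8 members in both libraries (0.699%), where 40.8% of all regions did. A score of at least 100 in both libraries (minus 10 times the log10 of the peak's p) was reached by 461 members (40.3%), against 85.8% of all regions. High values were also rare with Menin only, where the same shares were 3.52%, 1.41% and 48.9%. With Mll2 only they were 9.41%, 3.51% and 62.2%. Replicate 3, with fewer tags, was the limiting list: the median score of members was 226 in replicate 1 and 88 in replicate 3, not far above the lowest listed score of 50.02.

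Ranked by the mean strength of the 2 libraries, 526 members (45.9%) fell in the weakest decile of the 17999 regions, where they made up 29.2% of the regions. Their share was 15.7% in decile 2, 10.8% in decile 3 and 2.39% in decile 5, and decile 6 held 9 members. The 4 strongest deciles held 0 members, and in each of the 3 strongest at least 99.8% of regions had both proteins. By width the pattern was steeper at the narrow end. The narrowest decile (286 to 953 bp) held 682 members, which made up 37.9% of its regions, and the widest decile held 0. Among the 951 regions in the weakest and the narrowest decile at once, 392 (41.2%) were members, 304 (32.0%) had both proteins, 135 had Menin only and 120 had Mll2 only.

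**Figure D2:**
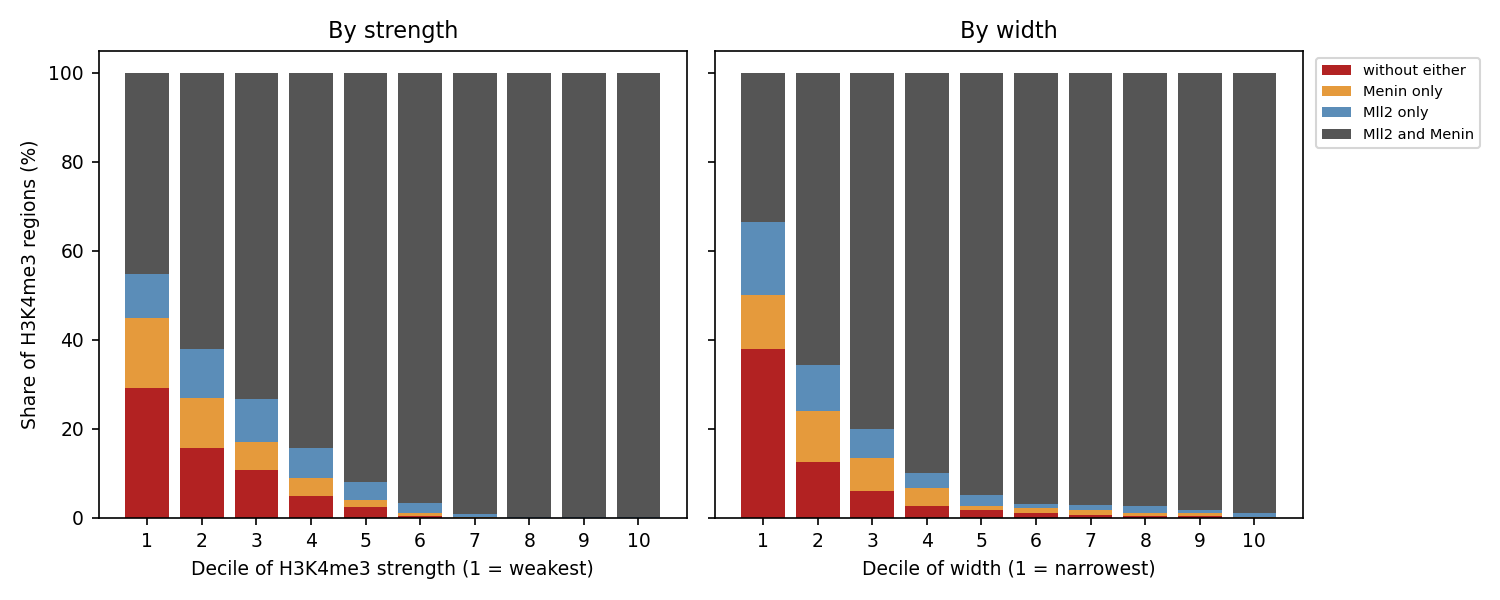
Share of the 17999 H3K4me3 regions (%) in each class by decile of strength (mean of both libraries, left) and by decile of width (right). Regions without Mll2 or Menin make up 29.2% of the weakest and 37.9% of the narrowest decile, and 0 regions of this class lie in strength deciles 7 to 10 or in width decile 10.

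Compared at like width, members and regions with both proteins were close in strength among narrow regions and apart among wider ones. Within the narrowest decile, the median strength in replicate 1 was 2.85 for members (n = 682), 2.72 with Menin only (n = 218), 3.40 with Mll2 only (n = 296) and 2.88 with both proteins (n = 604). Replicate 3 gave 2.81, 2.74, 3.07 and 2.99. All 4 classes lay low in this decile, with lower quartiles from 2.17 to 2.60 in replicate 1, where the lowest of all regions was 1.56. This leaves little room for a difference, and its part in the closeness was not tested. In the second decile of width (953 to 1203 bp) members had 3.40 and 3.11 in the 2 libraries, and regions with both proteins had 3.85 and 3.58. The third decile gave 3.70 and 3.25 for members (n = 110) against 5.16 and 4.83 with both proteins (n = 1440). In the fourth (1442 to 1677 bp) members had 4.62 and 3.67 (n = 49), regions with both proteins 7.30 and 7.23 (n = 1617), and regions with Menin only 4.49 and 3.64 (n = 71). In tags per kb members stayed near the regions with Menin only over these 4 deciles, while the distance to regions with both proteins widened. Regions with Mll2 only had 4.19 and 3.43 in the second decile and 5.95 and 4.64 in the fourth. By median fold, the narrowest decile gave 12.2 for members, 9.53 with Menin only, 14.2 with Mll2 only and 11 with both proteins in replicate 1. Replicate 3 gave 10.3, 9.27, 11.3 and 9.4. In the fourth decile these were 17.4, 16.5, 25.7 and 30.35 in replicate 1. Compared at like strength, members were narrower: in the weakest decile their median width was 791 bp, against 852 bp with Mll2 only, 970 bp with Menin only and 1052 bp with both proteins.

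Members were compact peaks. The merged width had a median of 870 bp (quartiles 684 and 1122, range 286 to 2984), against 2038 bp at regions with both proteins, 1109 bp with Menin only and 1089 bp with Mll2 only. In replicate 1 the peaks themselves had a median width of 852 bp and in replicate 3 of 614 bp, and the replicate 3 peak covered a median of 75.0% of the width of the replicate 1 peak. Each library had a single peak in 1130 members (98.7%), close to the 95.5% of all regions. Between the 2 libraries the summit moved by a median of 38 bp (quartiles 10 and 103), and by at most 100 bp in 74.6% of members. That share was 61.9% at regions with both proteins and 74.8% at those with Mll2 only. Of the widest members, 1 on chromosome 3 from 88379249 to 88382232 (2984 bp, 477 tags in replicate 1 and 127 in replicate 3) lay 118 bp from a 3080 bp region with both proteins. Another on chromosome 9 from 24623458 to 24626440 (2983 bp, 307 and 52 tags) lay 46 bp from an Mll2 peak, and the third on chromosome 10 from 96082109 to 96085016 (2908 bp, 306 and 29 tags) lay 23 bp from a 3507 bp region with both proteins. All 3 lay within 1 kb of an Mll2 peak.

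Between the 2 libraries, strength was within 2-fold in 1129 of 1145 members (98.6%), near the 97.0% of all regions, and the median ratio of replicate 3 to replicate 1 was 0.953 (quartiles 0.788 and 1.14). Across members, which share their libraries and inputs, Spearman's rho of the strengths was 0.662 (n = 1145), against 0.907 over regions with both proteins (n = 15346), whose strengths span a wider range. Exact Poisson 95% intervals of the tag counts, which cover counting error only, did not meet in 60 members (5.24%), against 34.2% of all regions. The share was 6.89% with Menin only, 14.9% with Mll2 only and 38.6% with both proteins. Such intervals are wider, relative to the count, where tags are fewer, so this share does not measure agreement between the libraries. Replicate 1 was higher in 53 of the 60 members and replicate 3 in 7. Regions with Menin only leaned the same way (44 and 5), as did those with Mll2 only (103 and 16). Over all regions replicate 3 was higher in 4344 and replicate 1 in 1805. Regions with both proteins made up 4316 and 1605 of these. A member on chromosome 7 from 91827204 to 91829042 had 273 tags and a strength of 6.77 in replicate 1 (interval 5.99 to 7.62) but 18 tags and 2.60 in replicate 3 (1.54 to 4.12). In the other direction, 1 on chromosome 4 from 146835172 to 146836038 had 48 tags and a strength of 2.52 in replicate 1 (1.86 to 3.35) and 27 tags and 6.89 in replicate 3 (4.54 to 10.03).

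**Figure D3:**
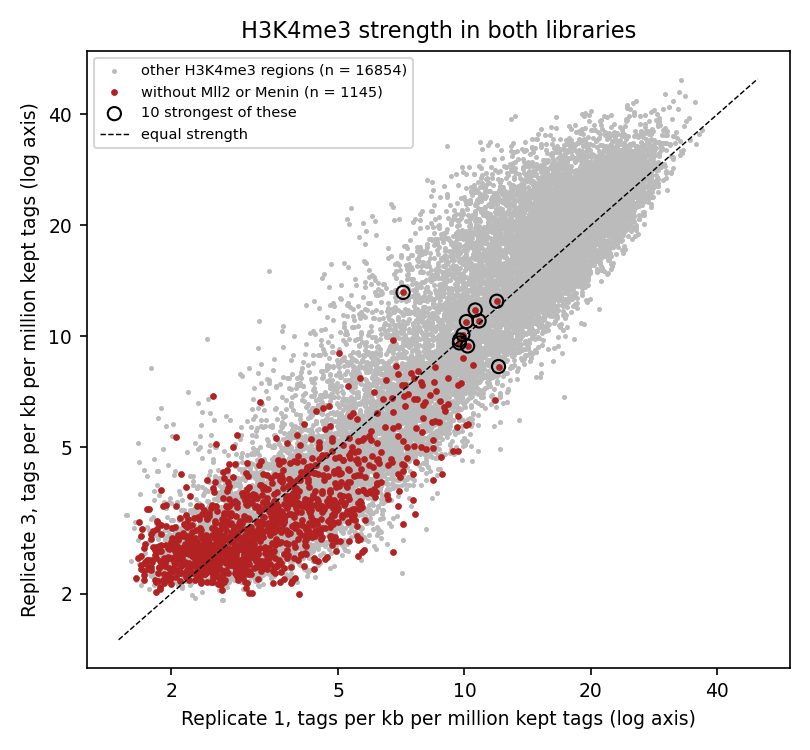
H3K4me3 strength (tags per kb per 1000000 kept tags, log axes) of each region in replicate 1 (x) and replicate 3 (y), with the 1145 regions without Mll2 or Menin in red, all other regions in grey, the 10 strongest members circled and equal strength as a dashed line. The red points fill the lower end of the cloud, and the circled members lie between 7.14 and 12.1 in replicate 1 and between 8.28 and 13.2 in replicate 3.

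By the selection no member overlapped an Mll2 peak, so each distance is to a peak outside the member. How such distances compare with those of other sites outside Mll2 peaks was not tested. The nearest Mll2 peak of either serum was a median of 35060 bp away, edge to edge (quartiles 9534 and 116374), and the medians were 41706 bp for serum 9172 and 41003 bp for serum 9175. With the Menin list not used, which adds the regions that had Menin only, the median was 16826.5 bp. An Mll2 peak lay within 1 kb of 54 members (4.72%), within 5 kb of 190 (16.6%) and within 50 kb of 674 (58.9%). For 311 members (27.2%) there was none within 100 kb. Menin gave a like picture, with a median of 37456 bp, 69 members within 1 kb and 369 beyond 100 kb. Across members the distances to Mll2 and to Menin ranked alike (Spearman's rho 0.841, n = 1145). Regions with Menin only, the class most like the members in strength, lay nearer to Mll2, at a median of 6770 bp (quartiles 2348.5 and 17897).

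The nearest Mll2 peak stood in another H3K4me3 region of both libraries for 679 members (59.3%) and outside such regions for 466. Its fold was higher in the first case, with a median of 14.7 against 8.19. For Menin the nearest peak stood in an H3K4me3 region for 707 members, with median folds of 11 inside and 8.94 outside.

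H3K4me3 strength barely varied with the distance to Mll2, while width did. Members within 1 kb of an Mll2 peak had median strengths of 3.49 and 3.16 in the 2 libraries, those at 10 to 50 kb had 3.23 and 3.00, and those beyond 100 kb had 3.04 and 2.94. Median width went from 1100.5 bp within 1 kb to 872 bp at 10 to 50 kb and 762 bp beyond 100 kb. Spearman's rho with distance was -0.35 for width and -0.09 and -0.04 for strength in replicates 1 and 3, over members that share their libraries (n = 1145). Member strengths had a narrow range near their lowest values, in replicate 3 with a minimum of 1.99 and quartiles of 2.55 and 3.70. A relation of strength to distance would thus be hard to see.

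**Figure D4:**
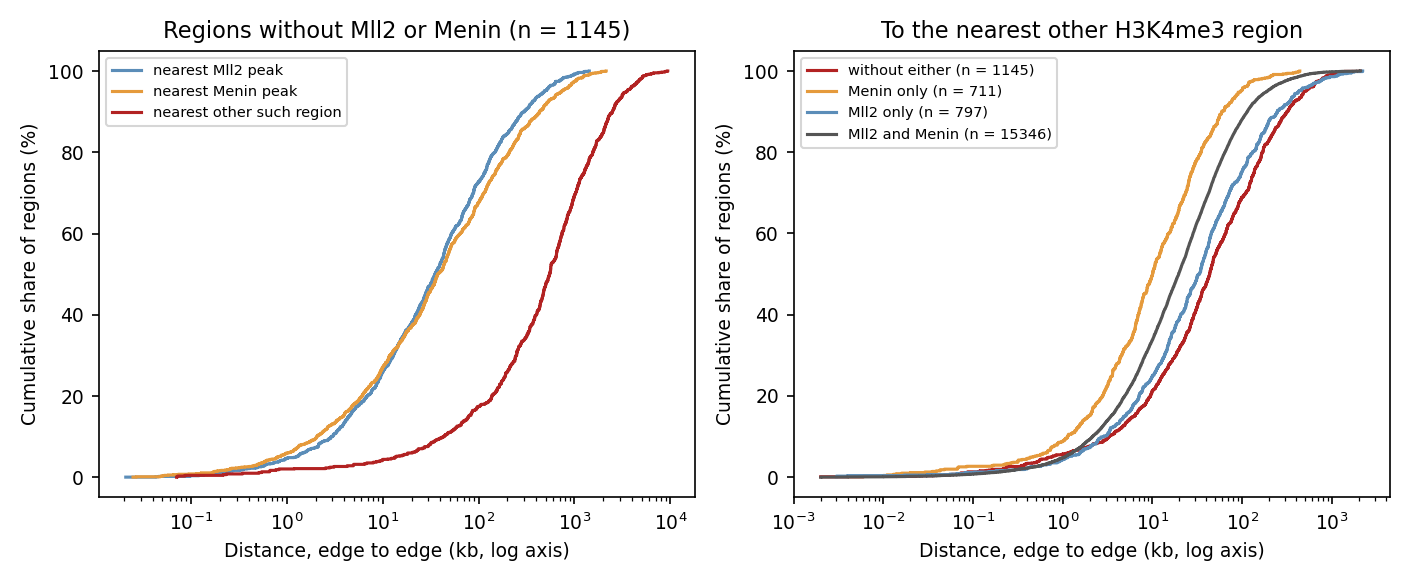
Cumulative share of regions (%) against edge-to-edge distance (kb, log axis). Left, the 1145 regions without Mll2 or Menin by distance to the nearest Mll2 peak, Menin peak and other such region. Right, the 4 classes by distance to the nearest other H3K4me3 region of both libraries. The medians on the right are 43475 bp for regions without either protein, 33277 bp with Mll2 only, 19616 bp with both and 10040 bp with Menin only.

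Members were farther from other marked regions than the other classes at the median. The nearest other H3K4me3 region of both libraries, of any class and width, was a median of 43475 bp away (quartiles 12913 and 136061), against 33277 bp for regions with Mll2 only, 19616 bp for those with both proteins and 10040 bp for those with Menin only. The members' median was 25313 bp with the Menin list not used and 66297 bp when H3K4me3 peaks needed a fold of at least 10. It was 30538 bp when Mll2 and Menin peaks needed a score of at least 100. Without H3K4me3 replicate 3 it was 28073.5 bp, and without replicate 1 it was 32869 bp. All of these but the value with the fold limit are below the 33277 bp given for Mll2 only. The other classes were not measured again, so the order of the classes under these settings is not known. A neighbour within 5 kb was present for 151 members (13.2%), where 20.0% of all regions had one, and no other region lay within 100 kb for 355 members (31.0%), where 13.4% of all regions were that isolated. Within 500 kb of a member there was a median of 7 other H3K4me3 regions (quartiles 3 and 12), against 14 around regions with both proteins and 17 around those with Menin only. Regions with Mll2 only resembled the members here: 15.1% had a neighbour within 5 kb, 24.8% had none within 100 kb, and the median number within 500 kb was 9.

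The nearest marked neighbour of a member was itself a member more often than over all regions. For 193 members (16.9%) the nearest other H3K4me3 region also lacked Mll2 and Menin, where 6.19% of all regions had such a neighbour. The share was 10.8% for regions with Mll2 only, 5.23% for those with both proteins and 4.64% for those with Menin only. For 812 members (70.9%) the nearest other region had both proteins. The 151 members with a neighbour within 5 kb had a median width of 994 bp and strengths of 3.12 and 3.08, and their neighbours had 1640 bp, 6.69 and 6.17. In 94 of these pairs the neighbour had both proteins, and it was the stronger of the pair in both libraries in 78 of the 94.

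At the other extreme, 250 members (21.8%) lay over 100 kb from any Mll2 or Menin peak and from any other H3K4me3 region of both libraries. Peaks called in only 1 H3K4me3 library were not counted and may lie nearer. The 250 members had strengths close to those of all members, with medians of 3.09 and 2.94. Their median folds were 13.8 and 11.3, and their median width was 765 bp. The member farthest from Mll2 and from other H3K4me3 lay on chromosome 14 from 90298402 to 90298926, with 27 tags in replicate 1 and 23 in replicate 3, strengths of 2.43 (1.60 to 3.54) and 4.07 (2.58 to 6.11), 1427241 bp from an Mll2 peak and 2076289 bp from another H3K4me3 region. A member on chromosome 3 from 3934850 to 3935653, 1283315 bp from Mll2, had 67 and 30 tags, strengths of 3.80 and 3.93 and folds of 21.7 and 17.9. One on chromosome 4 from 112654192 to 112654769, 1260913 bp from Mll2, was weaker, with 23 and 14 tags and strengths of 1.81 and 2.95. The first and the third of these sites had fewer tags in replicate 1 than the median member, and at all 3 the intervals of the 2 libraries overlapped.

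The 10 strongest members by mean strength reached only the middle of the whole distribution, between the 49.98th and the 57.97th percentile of all 17999 regions. The strongest lay on chromosome 17 from 21867639 to 21869463 (1825 bp), with 478 tags and a strength of 11.9 in replicate 1 (10.9 to 13.1) and 212 tags and 12.4 in replicate 3 (10.8 to 14.2). It lay 856 bp from an Mll2 peak, 863 bp from a Menin peak and 71 bp from another member of 954 bp. A member on chromosome 5 from 31789773 to 31792233 (2461 bp) held the most tags of any member, 585 and 273, at strengths of 10.8 and 11.01 and folds of 57.6 and 24.7, and stood 4136 bp from a region with both proteins. One on chromosome 7 from 74792022 to 74793644 had the highest replicate 1 fold of the members, 81.5, against 38.6 in replicate 3, with strengths of 12.1 (10.9 to 13.3) and 8.28 (6.69 to 10.1), intervals that did not meet. It flanked a 2460 bp region with both proteins at 338 bp.

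Of the 10 strongest, 4 lay within 5 kb of an Mll2 peak and 6 beyond 10 kb. Among the 6, a member on chromosome 16 from 20452731 to 20454814 had strengths of 10.6 and 11.8 with the nearest Mll2 peak at 25181 bp. One on chromosome 2 from 154178963 to 154180148 had strengths of 9.92 and 10.1 and folds of 39.96 and 48.9, with Mll2 at 17567 bp. A narrow one on chromosome 12 from 20077581 to 20078255 (675 bp) had strengths of 10.2 and 9.41 and folds of 42.4 and 41.4, with Mll2 at 117037 bp and another member 87 bp away. The member on chromosome 1 from 115858903 to 115860984 had an Mll2 peak at 2693 bp but no Menin peak within 1545215 bp, with strengths of 10.1 and 10.97.

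A fold of at least 40 in both libraries, a limit added later, was reached by 8 members. Of these, 4 lay on distal chromosome 2, from 176583484 to 176584150, from 177182045 to 177183323, from 177249407 to 177250513 and from 177493601 to 177494665. Their folds were 56.1, 63.0, 56.7 and 53.2 in replicate 1 and 51.7, 53.6, 50.8 and 63.0 in replicate 3, and their strengths ran from 7.20 to 9.74 and from 7.40 to 9.77. Chromosome 2 as a whole held 88 of the 1145 members and 1478 of the 17999 regions. Whether 8 members this strong were spread unevenly was not tested. Another 2 lay on chromosome 13, from 62753796 to 62755194 (folds 47.2 and 44.2) and from 67475779 to 67477081 (44.5 and 42.4). The others were the site on chromosome 12 given above and 1 on chromosome 7 from 7161864 to 7163049 (64.6 and 42.5). The nearest Mll2 peak of these 8 was between 13879 and 359011 bp away.

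Most members were spread out, and a small minority lay close together. No other member lay within 100 kb for 945 members (82.5%). Cut into windows of 1 Mb by midpoint, 2125 windows held at least 1 H3K4me3 region of at most 5000 bp; 1299 of them held 0 members, 602 held 1, and 6 held 5 or more. The fullest window lay on chromosome 4 from 145000001 to 146000000, where 10 of 19 regions were members, and the next window on that chromosome had 7 of 16. The 10 had strengths from 2.72 to 5.98 in replicate 1 and from 3.06 to 7.32 in replicate 3, and the 7 had strengths from 2.52 to 9.66 and from 2.36 to 13.2. Of the 9 other regions in each of these windows, 8 in the first and 7 in the second had both proteins. The window on chromosome 2 from 177000001 to 178000000 had 6 members of 14 regions, with strengths from 5.65 to 9.73 in replicate 1 and from 5.85 to 9.59 in replicate 3, and of its other 8 regions 5 had Menin only and 3 both proteins. On chromosome 13, 5 of 16 regions were members between 62000001 and 63000000 (median strengths 5.35 and 6.07) and 5 of 14 between 66000001 and 67000000 (3.36 and 2.57). These 6 windows were singled out after their counts were seen.

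Distal chromosomes 2 and 4 and a part of chromosome 13 are known in the mouse for large tandem arrays of zinc finger genes, whose near-identical copies are hard to tell apart with short reads. Which genes lie at the members was not determined, because no gene annotation in the build of the files (mm9) was used, and how uniquely tags map at these sites was not tested.

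The sixth window differed. On chromosome 7 between 14000001 and 15000000 all 7 regions were members, from 14117719 to 14701686, with strengths from 2.28 to 6.08 in replicate 1 and from 2.48 to 4.11 in replicate 3 and with Mll2 between 19.9 and 304 kb away. In genome order these 7 were the longest run of consecutive H3K4me3 regions without either protein. There were 2 runs of 6 members, 2 of 5, 4 of 4, 19 of 3 and 116 of 2, while 811 members stood alone between regions of other classes. A run of 6 on chromosome 4 from 146822827 to 147077034 spanned 254 kb, and the other, on chromosome 1 from 115858903 to 119970216, spanned 4111 kb.

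By chromosome, members made up between 3.46% of the H3K4me3 regions of chromosome 11 (50 of 1446, exact Clopper-Pearson 95% interval 2.58 to 4.53%) and 9.62% of those of chromosome 14 (61 of 634, 7.44 to 12.2%). Chromosomes 8 (4.17%) and 19 (4.45%) were near the low end and chromosomes 13 (8.85%) and 18 (8.10%) near the high end. These extremes were picked after the shares of the 19 autosomes were seen, and the intervals treat regions as independent, although some members lie in runs. Median member strength varied little, from 2.76 on chromosome 12 to 3.67 on chromosome 19 in replicate 1 and from 2.75 on chromosome 18 to 3.38 on chromosome 2 in replicate 3.

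**Figure D5:**
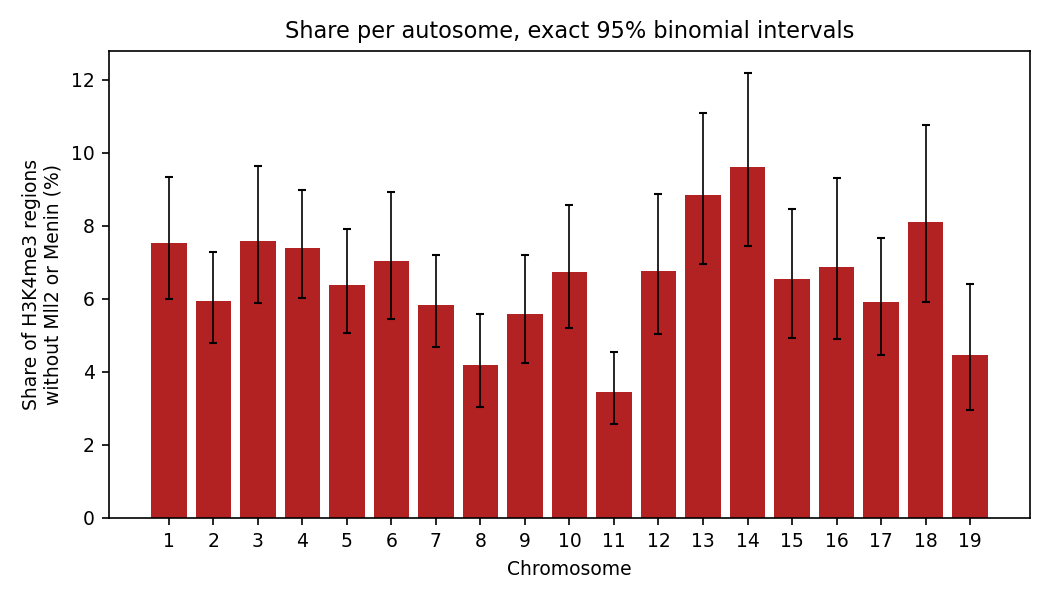
Share of H3K4me3 regions at most 5000 bp wide that lack Mll2 and Menin peaks (%), for each autosome, with exact Clopper-Pearson 95% intervals that cover counting error only. Shares run from 3.46% on chromosome 11 to 9.62% on chromosome 14.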

How the data were processed

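Peak lists of 5 ChIP-seq libraries were used. Per the file headers the authors used MACS 1.4.2 to call peaks in each library against an input, with the p cutoff set to 1e-05 and at most 1 tag per position. Per the submitters' processing notes the build was mm9 and the aligner for the series Bowtie 0.12.9. The deposited counts are raw ChIP tags per peak. Fold enrichment was deposited as a ratio to estimated background, the deposited score is minus 10 times log10 p, and the deposited false discovery rate is in percent, at most 0.95% here. Where a library had several peaks in a region, tags and widths were summed and the highest fold was taken. Keeping 1 tag per position can compress strong, narrow peaks, and depth ran from 11550409 to 21936546 kept tags. Overlaps, strengths and distances (bases between edges) were computed with Python 3.11.15, pandas 2.3.3, numpy 2.4.6 and scipy 1.17.1. On simulated lists 1593 of 1593 planted regions were given the right class. There both H3K4me3 libraries had the same single interval in each region, so the merging of unequal or multiple peaks was not tried. Named regions were the strongest, the widest, the most isolated, those nearest the limits and those most unlike between libraries, plus the members with a fold of at least 40 in both libraries and the windows of 1 Mb, added later. The members and lists were chosen with earlier results of these data known. No sequences are printed, since no genome in mm9 was used here.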

Additional observations from a re-analysis of the deposited data

How the results depend on the processing

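Of 85 values over 8 results and 17 alternative settings, 60 moved by less than the spread used (the SD between the H3K4me3 libraries for strength and width, the exact binomial interval of the median for distances, 1.5 times for counts). The 1145 members became 2349 when Mll2 and Menin peaks needed a score of at least 100, 1856 with the Menin list not used, and 579 with H3K4me3 peaks of at least 10-fold. With one H3K4me3 library left out the count ran from 1438 (without replicate 1) to 3940 (without replicate 3). The median strength of replicate 1 was 3.41 with the score limit, 3.92 with the fold limit and 2.34 without replicate 3. That of replicate 3 was 3.51 with the fold limit, 2.24 over the merged width and 2.89 without replicate 1. The ratio to regions with both proteins was 0.285 in replicate 1 and 0.239 without replicate 3, and 0.245 in replicate 3 and 0.240 without replicate 1. Median width was 597 bp over the stretch covered by both libraries and 613 to 681 bp with one library. The median distance to Mll2 was 45473 bp with the fold limit, 41453 bp with no protein peak within 1000 bp, 16826.5 bp without the Menin list, 41612 bp with serum 9175 not used, 41706 bp and 41003 bp to serum 9172 and serum 9175 alone, and 25141 to 33720 bp with one H3K4me3 library. The median distance to another H3K4me3 region was 30538 bp with the score limit, 66297 bp with the fold limit, 25313 bp without the Menin list and 28073.5 to 32869 bp with one library. Stricter limits and left-out lists change by construction which peaks enter; for the others the cause was not tested. With no width limit the members stayed the same 1145, so their values under this setting count among the 60 but could not move. No paired analysis was possible because no test compares groups, and the knockdown groups that share the numbers 1 and 3 were not analysed here.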

Other observations

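Chromosome X, which the selection left out, held 77 regions that otherwise met it, 14.0% of its 550 H3K4me3 regions of at most 5000 bp (exact Clopper-Pearson 95% interval 11.2 to 17.2%). Their median strengths were 3.65 in replicate 1 and 3.25 in replicate 3, their median width was 940 bp and the widest measured 3703 bp. Of these, 6 reached a fold of at least 40 in replicate 1, and the strongest values were 13.2 and 10.5. All H3K4me3 regions of the chromosome had median strengths of 7.71 and 7.00, against 9.36 and 9.57 on the autosomes.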
